A study of Mus musculus with 18 samples.

Results

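Coding joins with short insertions are V(D)J-type joins of a recombination substrate in which 1 to 3 bases lie between the 2 joined ends and belong to neither of them. They were selected on the read itself: a junction counted when its partner alignment began on the substrate's plus strand in the coding-join window, which opens at position 2800, and when the gap between the bait and partner alignments was 1 to 3 bp. The same limits were applied to every library, and the rule itself uses no group label. The class was, however, chosen with earlier results of these data known. The rule found 1641 such joins among 6903 coding joins and 30937 junctions of any kind, with 55 to 262 per library. The remaining coding joins were 2048 direct joins, 2256 joins with microhomology and 958 joins with insertions over 3 bp.

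The joins came from v-abl-transformed B cells of strain 129 mice, precursor B cells kept growing by a viral Abl kinase. The lines carried the stably integrated pMX-INV substrate, and junctions were read by high-throughput genome translocation sequencing (HTGTS), which sequences outwards from a fixed bait primer next to a RAG break into whatever partner the end was joined to. Of the 12 libraries, 6 lacked DNA-PKcs: 3 were CtIP A/A DNA-PKcs −/− (2 in G2 and 1 in G1) and 3 were DNA-PKcs −/− (2 in G2 and 1 in G1). The 6 libraries with DNA-PKcs were 3 of CtIP A/A and 3 of wild type (WT), split between the phases in the same way. G2 libraries came from cells given 3 µM of the Abl inhibitor STI571 for 24 h and then 10 µM of the CDK1 inhibitor RO3306 for 48 h, and G1 libraries from cells given 3 µM STI571 for 48 or 72 h. Genotype could not be told apart from cell line, and the labels do not say whether replicates came from separate cultures, so p-values measure only the spread between libraries, which may be technical. Likewise, phase could not be told apart from RO3306, given only for G2, or from the time in STI571. Nothing in the junction lists measures CtIP or DNA-PKcs, so each genotype rests on its label.

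RAG cuts a coding end into a sealed hairpin, which Artemis opens together with DNA-PKcs before the end can be joined. When the hairpin is nicked to one side of its tip, a short overhang is left that repeats the coding end as its own reverse complement, and these palindromic bases are called P nucleotides. Further bases, N nucleotides, can be added without a template by terminal deoxynucleotidyl transferase (TdT), and other polymerases can fill or extend ends during repair. CtIP takes part in trimming DNA ends, and its A/A allele has alanine at a site that ATM and ATR phosphorylate.

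Each coding end adjoins a heptamer of the recombination signal, CACTGTG on the plus strand, which lies at substrate positions 1936 to 1942 before the bait coding sequence and at 2806 to 2812 before the partner coding sequence. Because the heptamer happens to share its outermost bases with the palindrome of both coding ends, the first 2 P nucleotides at either end align to the substrate as if they were heptamer bases, and the third P nucleotide is the first that shows up as an inserted base. The runs that a P nucleotide track leaves in a read are shown here because several end positions and inserted bases described further on are read through them. Lower case marks bases aligned to the heptamer and capitals mark inserted bases.
P run of 3 at the bait end: caG
P run of 4 at the bait end: caGA
P run of 5 at the bait end: caGAC
P run of 3 at the partner end: Ctg
P run of 4 at the partner end: GCtg
P run of 5 at the partner end: GGCtg

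Short insertions made up a smaller share of coding joins without DNA-PKcs, but a larger share of those joins that carried any insertion. They were 11.6% of coding joins in the lowest DNA-PKcs −/− library, 16.6% at the median and 25.7% in the highest, against 31.5%, 36.7% and 42.4% in the libraries with DNA-PKcs, so the groups did not overlap. Averaged with equal weight over the 4 strata of CtIP genotype and phase, the share was 17.9% without DNA-PKcs and 36.4% with it. The difference was −18.5 points (95% interval −25.7 to −11.4, from inverting the permutation test), with p = 0.0139 when genotype labels were permuted within strata (exact, two-sided) and adjusted p = 0.0185 over the 8 measures of the comparison. This p is the smallest that the 144 arrangements allow. The first G2 replicates of all genotypes were sequenced in one run, where the difference was −23.4 points, and the other libraries in a second run, where it was −17.5 points.

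Among coding joins with any insertion, those of 1 to 3 bp took 70.9% in the lowest, 77.5% in the median and 82.8% in the highest library without DNA-PKcs, against 46.2%, 54.3% and 62.7% in libraries with it. Again the groups did not overlap. The stratum means were 78.3% and 53.6%, a difference of 24.7 points (95% interval 11.7 to 33.1, adjusted p = 0.0185, exact permutation). Longer insertions were thus rarer still than short ones in cells that lacked the kinase.

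Within the short class, single bases were more frequent without DNA-PKcs. They were 46.4%, 50.5% and 55.3% of the joins in the lowest, median and highest DNA-PKcs −/− libraries, against 34.6%, 39.6% and 43.8% in libraries with DNA-PKcs, with no overlap. The difference of stratum means, 51.1% and 38.4%, was 12.7 points (95% interval 5.35 to 19.1, adjusted p = 0.0185, exact permutation). At the limits of the selection, the values on either side were as follows, given as a description. As a share of all coding joins, those with no inserted base were 35.9% ± 2.28 in libraries without DNA-PKcs and 15.3% ± 0.737 in libraries with it, and those with 1 base were 9.09% ± 2.56 and 14.6% ± 2.35 (SD, n = 6 libraries each). Joins with 3 bases were 3.58% ± 0.897 and 8.996% ± 0.877, and those with 4 bases 1.67% ± 0.627 and 8.08% ± 0.869.

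**Figure D1:**
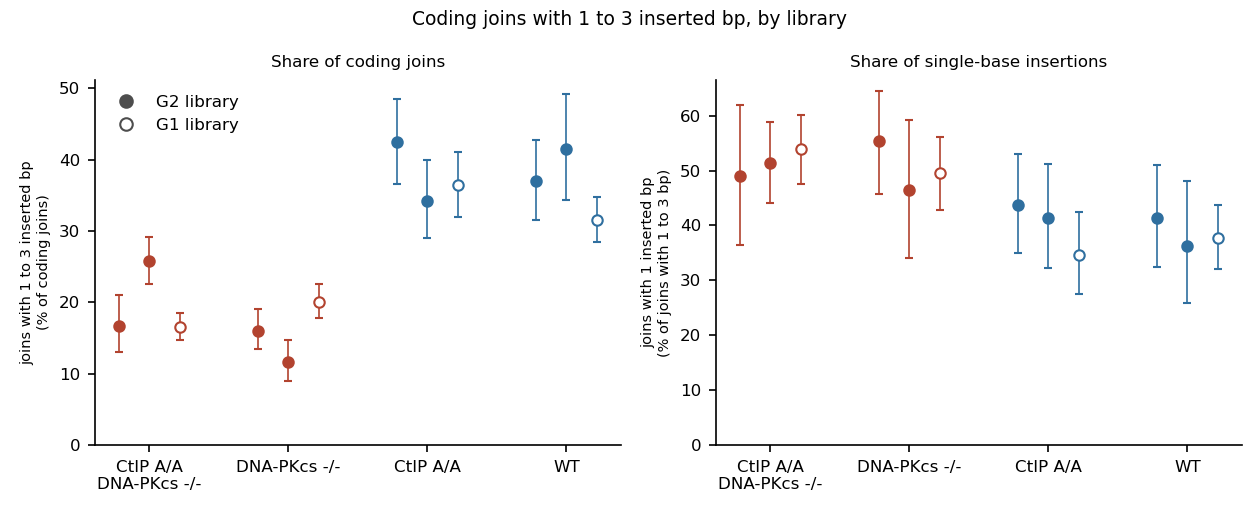
Each point is 1 library, with its 95% Wilson interval. The left panel gives joins with 1 to 3 inserted bp as a percentage of coding joins, and the right panel gives single-base insertions as a percentage of joins with 1 to 3 inserted bp. Genotypes lacking DNA-PKcs are red and those with it blue, and filled points are G2 libraries and open points G1 libraries. The red points of the left panel end at 25.7%, below the lowest blue point at 31.5%, and those of the right panel start at 46.4%, above the highest blue point at 43.8%.

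The inserted bases were mostly G and C in both classes. Over all joins there were 1402 inserted bases without DNA-PKcs, of which 70.4% were G or C, and 1484 with DNA-PKcs, of which 65.9% were. By library the G or C share ran from 67.7% over a median of 70.6% to 76.0% without DNA-PKcs, against 63.3%, 65.1% and 68.8% with it, so the groups overlapped at their edges. The stratum means of 70.5% and 65.7% differed by 4.75 points (95% interval 1.43 to 10.4, adjusted p = 0.0317, exact permutation). This call did not survive several alternatives. With bases aligned to the heptamers counted as inserted, the difference was −0.173 points (adjusted p = 0.792, exact permutation). With insertions of up to 4 bp it was 2.30 points, without the joins at a run of C bases described below it was 2.35 points, and without joins holding a P run of 3 or more it was 3.06 points (adjusted p = 0.0833 in each, exact permutation).

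Single inserted bases followed the same composition. G was inserted in 154 joins without DNA-PKcs, 33.9% ± 7.73 of single-base insertions per library, and in 110 joins with it, 33.7% ± 11.003 (SD, n = 6 libraries each). C was inserted in 144 joins, 35.7% ± 6.84, against 73 joins, 25.9% ± 8.64. A accounted for 15.04% ± 5.21 and 21.6% ± 6.48, and T for 15.3% ± 7.45 and 18.8% ± 4.85. C had the higher mean without DNA-PKcs, and its ranges of 29.5% to 44.4% without and 15.1% to 34.9% with the kinase overlapped.

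Pairs of like bases led the 2 bp insertions. GG was found in 43 joins without DNA-PKcs and 45 with it, and CC in 40 and 49. In mean share per library GA followed, with 29 and 20 joins, then CG with 20 and 22, and CT with 22 and 30. Of these 5 pairs only CG mixed a purine with a pyrimidine. Of all 2 bp insertions, 67.7% were purine-only or pyrimidine-only without DNA-PKcs and 76.8% with it, where bases drawn independently from each class's own composition would give 50.1% in either class. That figure takes no account of P runs. It also ignores that an inserted base cannot equal the substrate base it would otherwise extend, so it is only a rough baseline. TdT tends to add purines next to purines and pyrimidines next to pyrimidines, but whether it added these bases was not tested.

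Taking 2 and 3 bp insertions together, purine-only or pyrimidine-only insertions were 39.3% in the lowest, 55.2% in the median and 66.7% in the highest library without DNA-PKcs, against 58.6%, 68.1% and 75.0% with it. The stratum means were 55.0% and 68.2%, a difference of −13.2 points that missed the threshold after adjustment over the 6 tests of measures chosen after the data had been seen (95% interval −24.8 to −4.52, p = 0.0278, adjusted p = 0.0833, exact permutation). Without the joins at the run of C bases the difference was −8.02 points (adjusted p = 0.222, exact permutation). Among joins with both ends deleted and those at the C run left out, the pooled shares were alike. They were 165 of 244 (67.6%) without DNA-PKcs and 162 of 247 (65.6%) with it, and this was not tested.

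The 5 leading 3 bp insertions by mean share per library were CCG, with 22 joins lacking DNA-PKcs and 12 with it, then CCT with 8 and 25, and CCC with 11 and 24. GGG was found in 11 joins of each class. The fifth, GAC, was found in 11 joins without DNA-PKcs and 1 with it, and it is the inserted part of the longest P run at the bait end. It took 37.5% of the 3 bp insertions in the first CtIP A/A DNA-PKcs −/− G2 library, where 16 joins carried 3 bases.

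Long P runs took a larger share of short insertions without DNA-PKcs, but the difference missed the threshold after adjustment. Short insertions were themselves a smaller share of coding joins there, with stratum means of 17.9% against 36.4%. The values below therefore do not say how often such runs arose per coding join, which was not tested. A join had a P run of 3 or more when a coding end was read through both matching heptamer bases and the inserted bases went on with the palindrome. Such runs were found at either end in 133 of 842 joins without DNA-PKcs (15.8%, 95% Wilson interval 13.5% to 18.4%) and in 55 of 799 with it (6.88%, 5.33% to 8.85%). By library they took 11.3% in the lowest, 17.6% in the median and 32.7% in the highest library without DNA-PKcs, against 3.05%, 8.85% and 11.6% with it. The groups overlapped only between the lowest library of one class and the highest of the other. The stratum means of 17.6% and 7.29% differed by 10.3 points and the share was higher without DNA-PKcs in 4 of 4 strata (95% interval 5.56 to 19.1, p = 0.0139, adjusted p = 0.0833 over the same 6 tests, exact permutation), which missed the threshold. This p is the smallest that the 144 arrangements allow. By itself it could not pass adjustment over 6 tests, however large the difference.

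The library at the top of that range, the first CtIP A/A DNA-PKcs −/− G2 replicate, held 18 such runs among 55 joins and 6 of the runs of 5. Without it the difference was 7.73 points (adjusted p = 0.0833), and without the second replicate of the same group it was 12.9 points (adjusted p = 0.0370, exact permutation). Within the sequencing run of the first G2 replicates the difference was 16.8 points and within the other run it was 8.06 points, with the same sign in 2 of 2 and 4 of 4 strata. The measure was chosen after the reads had been looked at.

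The inserted base next to a kept end was then set against that next to a deleted end. At the bait end, joins without DNA-PKcs that were read to both of these bases went on with G, the third P nucleotide, in 69 of 75 cases (92.0%, 95% Wilson interval 83.6% to 96.3%), and those with DNA-PKcs did so in 19 of 29 (65.5%, 47.3% to 80.1%). Deleted bait ends whose next substrate base was the same as in these joins give a baseline, since an inserted base cannot equal that next base. Their first inserted base was G in 57 of 97 joins without DNA-PKcs (58.8%, 48.8% to 68.0%) and in 30 of 112 with it (26.8%, 19.5% to 35.7%). The baseline itself was thus higher in the joins lacking the kinase.

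At the partner end the last inserted base before both heptamer bases was C, the third P nucleotide there, in 70 of 74 joins without DNA-PKcs (94.6%, 95% Wilson interval 86.9% to 97.9%) and in 37 of 74 with it (50.0%, 38.9% to 61.1%). Deleted partner ends in the matching context had C in 65 of 124 joins (52.4%, 43.7% to 61.004%) and in 23 of 53 (43.4%, 30.95% to 56.7%). At both ends and in both classes, the P base was thus counted at a higher share at ends with both heptamer bases than at deleted ends. These shares pool joins of 6 libraries in each class, their intervals leave out the spread between libraries, and neither the contrast of kept and deleted ends nor that of the genotypes was tested. In the single libraries without DNA-PKcs, 6 to 19 of the bait ends and 7 to 19 of the partner ends with both heptamer bases carried the P base.

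Run lengths differed in the same direction. At the bait end without DNA-PKcs, 44 joins had a run of 3, 15 a run of 4 and 10 a run of 5, against 12, 6 and 1 with DNA-PKcs. At the partner end the counts were 51, 10 and 9, against 32, 3 and 2. Runs of 1 base were the reverse: 17 joins at the bait end and 16 at the partner end without DNA-PKcs, and 64 and 82 with it. Among ends of this class with any P run, runs of 3 were thus the most frequent without DNA-PKcs and runs of 1 the most frequent with it, at both ends. The limits of the class shape these counts. Since the first 2 P bases align to the heptamer, a run of 1 or 2 enters only if other bases were inserted as well. A run of 3 can enter by itself, and 5 is the longest run that 3 inserted bases allow.

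A P run held all inserted bases in 98 of 842 joins without DNA-PKcs (11.6%, 95% Wilson interval 9.64% to 13.98%) and in 26 of 799 with it (3.25%, 2.23% to 4.73%). Among coding joins with insertions over 3 bp, which are outside the class, a P run of 3 or more stood in 68 of 228 joins without DNA-PKcs (29.8%) and in 101 of 730 with it (13.8%).

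**Figure D2:**
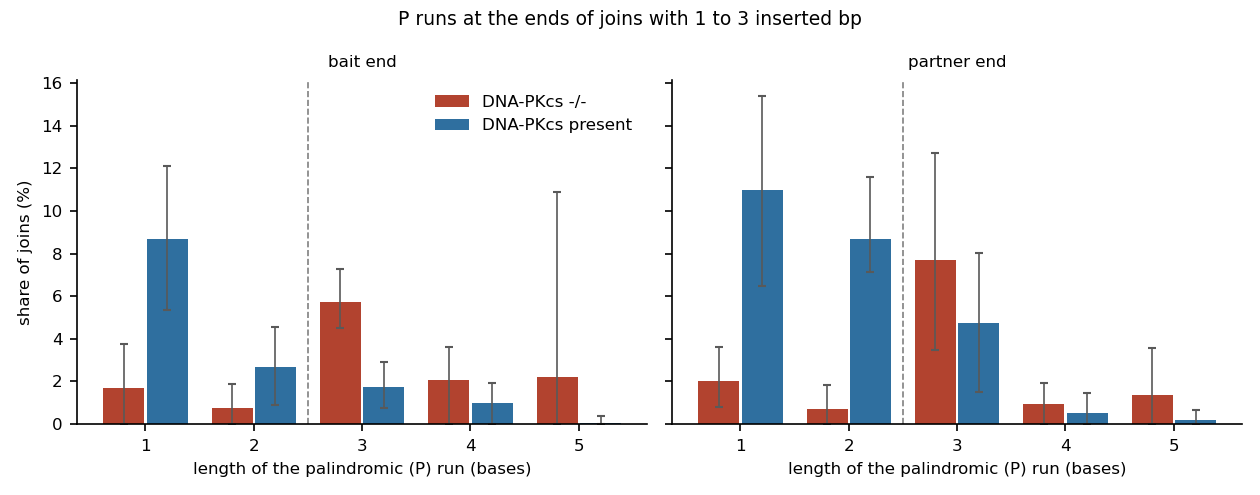
Bars give the mean share, in percent of joins with 1 to 3 inserted bp, that had a P run of the length on the x axis (bases) at the bait end (left) or the partner end (right), and lines span the lowest to the highest of 6 libraries. Red bars are DNA-PKcs −/− libraries and blue bars libraries with DNA-PKcs. The dashed line separates runs that align wholly to the heptamer from runs that go on into inserted bases. Runs of 2 include ends read into the heptamer beyond the palindrome. With DNA-PKcs these were 15 joins at the bait end and 30 at the partner end, and without it 3 and 1. Runs of 1 base averaged 1.72% and 8.68% at the bait end, and runs of 3 averaged 5.72% and 1.74%.

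Partner ends were kept less often without DNA-PKcs. An end was counted as kept when it had lost no coding base, whether or not heptamer bases followed. The partner end was kept in 12.1%, 15.1% and 19.4% of joins in the lowest, median and highest library without DNA-PKcs, against 22.1%, 32.6% and 37.7% with it, and the groups did not overlap. The stratum means of 14.9% and 30.6% differed by −15.8 points (95% interval −21.6 to −10.6, adjusted p = 0.0185, exact permutation). With heptamer bases counted as inserted, the difference was −9.70 points (adjusted p = 0.0185, exact permutation). Within the 2 sequencing runs it was −16.9 and −16.6 points.

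The bait end was kept in 12.5%, 15.4% and 30.9% of joins without DNA-PKcs, against 19.1%, 25.3% and 30.4% with it, with groups that overlapped. The stratum means of 17.5% and 24.1% differed by −6.53 points, which missed the threshold (95% interval −16.6 to 1.46, adjusted p = 0.0556, exact permutation). This result depended on the P runs and on 1 library. Without joins holding a P run of 3 or more the difference was −12.9 points, with heptamer bases counted as inserted −9.15 points and with insertions of up to 2 bp −10.7 points (adjusted p = 0.0185, 0.0185 and 0.0139, exact permutation). Without the first CtIP A/A DNA-PKcs −/− G2 library, the one at 30.9%, it was −8.66 points (adjusted p = 0.0159, exact permutation).

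Both ends were kept together in 8 joins without DNA-PKcs (0.9501%) and in 50 with it (6.26%), and both had lost bases in 589 (70.0%) and 423 (52.9%). The product of the separate shares for the 2 ends was 2.39% without DNA-PKcs and 7.01% with it, given as a description. Long deletions went the other way. Partner deletions over 20 bp were 12.6%, 16.4% and 34.4% of joins in the lowest, median and highest library without DNA-PKcs, against 3.85%, 8.10% and 17.6% with it, and bait deletions over 20 bp were 20.0%, 34.5% and 46.7% against 7.14%, 9.11% and 21.6%. Although the ranges overlapped, each stratum differed in the same direction.

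The stratum means for partner deletions over 20 bp, 24.2% and 11.7%, differed by 12.6 points (95% interval 5.75 to 16.2), and those for bait deletions, 36.0% and 14.5%, by 21.5 points (14.9 to 29.6). Each had an adjusted p of 0.0185 in the exact permutation test. The median partner deletion was 11.1 bp ± 2.65 without DNA-PKcs and 4.50 bp ± 2.17 with it (SD, n = 6 libraries each). The median bait deletion was 12 bp ± 4.66 and 4.00 bp ± 2.10.

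Some positions stood out among the ends. The 5 most used partner positions, by mean share per library, were 2811, 2812, 2829, 2815 and 2820. Position 2811, read through both heptamer bases, took 10.6% ± 4.37 of joins without DNA-PKcs and 10.1% ± 2.99 with it (SD, n = 6 libraries each), while position 2812, with 1 heptamer base, took 2.04% ± 1.18 and 11.004% ± 3.03. Position 2815, 2 bp inside the coding sequence, took 3.96% ± 2.46 and 6.47% ± 2.25, and position 2820 took 4.87% ± 1.71 and 4.98% ± 1.39. At the partner end, the position with 2 heptamer bases thus took a like share of short insertions in the 2 classes. The shares at the position with 1 heptamer base did not overlap, at 0.823% to 3.64% without DNA-PKcs against 6.49% to 15.4% with it.

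At the bait end, the 5 most used positions were the exact border just after the heptamer, 1941, 1947, 1945 and 1944. The exact border took 5.14% ± 1.72 of joins without DNA-PKcs and 11.04% ± 3.38 with it. Position 1941, with both heptamer bases, took 10.5% ± 5.74 and 4.18% ± 1.82. Positions 1947, 1945 and 1944 took 4.52% ± 1.50, 3.80% ± 1.83 and 2.63% ± 1.72 without DNA-PKcs, against 8.31% ± 3.14, 8.78% ± 2.51 and 8.82% ± 3.02 with it (SD, n = 6 libraries each).

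**Figure D3:**
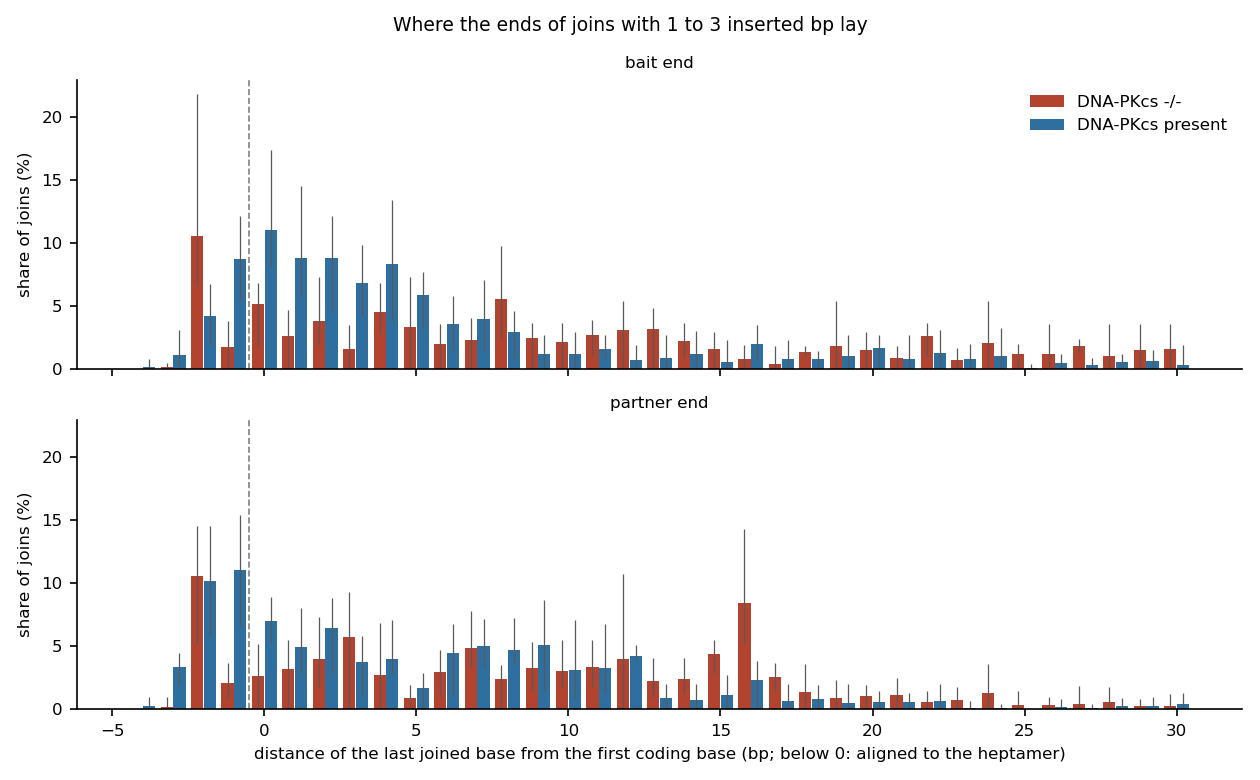
Bars give the mean share, in percent of joins with 1 to 3 inserted bp, whose last joined base lay at each distance (bp) from the first coding base, for the bait end (top) and the partner end (bottom), and lines span the lowest to the highest of 6 libraries. Distances below 0 are bases aligned to the heptamer, left of the dashed line, red bars are DNA-PKcs −/− libraries and blue bars libraries with DNA-PKcs. Red bars are tall at −2 at both ends (10.5% bait, 10.6% partner) and at 16 bp at the partner end (8.38%), while blue bars are tallest around the border.

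Position 2829, 16 bp into the partner coding sequence, took 8.38% ± 3.13 of joins without DNA-PKcs and 2.30% ± 1.38 with it. It is the second base of a run of 10 C bases at positions 2828 to 2837. In 50 of 65 joins at this position without DNA-PKcs and 17 of 22 with it, the inserted bases equalled the substrate bases before the run, so that each read there matches an uninterrupted substrate with 1 C fewer. At position 2828 the inserted bases equalled those before the run with 1 C more in 16 of 34 joins and 2 of 11. Together such joins were 66 of 842 short insertions without DNA-PKcs (7.84%) and 19 of 799 with it (2.38%).

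Reads that crossed the whole run carried 9 C bases in 110 of 1029 cases without DNA-PKcs (10.7%) and in 105 of 1231 with it (8.53%). A read of an uninserted join upstream that carries 1 C fewer gives the same alignment, and the part of such reads in the class was not tested. Of the named insertions, CCG was the one most concerned, with 21 of 22 joins without DNA-PKcs and 4 of 12 with it. CG came next with 15 of 20 and 9 of 22, and single G had 14 of 154 and 4 of 110. Leaving these joins out ended the call on the G or C share, given above, and no other DNA-PKcs call.

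The 1641 joins formed 1368 distinct joints, each defined by the bait end, the inserted bases and the partner position. Of these, 1189 were seen once, 173 were found in 2 or more libraries, and 10 lines in all repeated a joint within a library. The 5 leading joints by mean share per library all carried a single inserted base.

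The first of these joints linked bait end 1947 through C to partner position 2811 in 6 joins, all without DNA-PKcs and from 5 libraries. The second, from 1951 through C to 2811, was found in 5 joins, all without DNA-PKcs and in 5 libraries. In both the C continues the partner end's P run to 3. The third, from 1944 through C to 2816, was found in 5 joins of 5 libraries, all with DNA-PKcs. The fourth, from 1941 through G to 2819, continues the bait end's P run to 3 and was found in 4 joins without DNA-PKcs and 2 with it. The fifth, from 1945 through C to 2811, also continues the partner end's P run to 3 and was found in 3 joins of each class.

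Compared with other coding joins of the same libraries, short insertions kept the partner end more often than direct joins and less often than longer insertions. The difference from direct joins missed the threshold once joins holding a P run of 3 or more were left out. Each library gave 1 difference, tested by an exact sign-flip permutation over 12 libraries with adjustment over 8 comparisons. The partner end was kept in 15.4% ± 3.03 of short insertions and 2.88% ± 0.750 of direct joins without DNA-PKcs, and in 32.1% ± 5.79 and 26.0% ± 9.23 with it (SD, n = 6 libraries each). Over all libraries the difference from direct joins was 9.30 points, in the same direction in 11 of 12 libraries (adjusted p = 0.00391, exact permutation). The bait end was kept in 17.6% ± 6.83 and 3.44% ± 1.96 of these joins without DNA-PKcs, and in 25.2% ± 4.58 and 22.3% ± 4.08 with it, a difference of 8.51 points in 10 of 12 libraries (adjusted p = 0.00684, exact permutation).

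Part of both differences follows from how the classes are defined. A join with a P run of 3 or more has a kept end and an inserted base, so it cannot be a direct join. Both differences were smaller without the P runs. Without joins holding a P run of 3 or more they were 2.99 points at the partner end and 3.63 points at the bait end (adjusted p = 0.104 and 0.0794, exact permutation). With heptamer bases counted as inserted the bait difference was 3.28 points (adjusted p = 0.247, exact permutation). Losses of over 20 bp at the partner end were rarer in short insertions than in direct joins in 12 of 12 libraries, by 12.8 points on average, with 21.2% ± 9.70 against 44.7% ± 8.96 without DNA-PKcs and 9.83% ± 6.14 against 11.97% ± 7.70 with it (adjusted p = 0.00195, exact permutation). Bait deletions over 20 bp differed by −8.59 points in the same test, which missed the threshold (adjusted p = 0.0768, exact permutation). Without DNA-PKcs they were 33.9% ± 10.4 in short insertions against 53.3% ± 10.7 in direct joins, and 0 of 6 libraries were higher in short insertions. With DNA-PKcs they were 12.4% ± 6.53 against 10.2% ± 4.81, and 4 of 6 libraries were higher. The contrast between the 2 classes was not tested.

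Against insertions over 3 bp, the partner end was kept less often in short insertions in 12 of 12 libraries, by 13.3 points, with 15.4% ± 3.03 against 28.2% ± 8.67 without DNA-PKcs and 32.1% ± 5.79 against 45.9% ± 7.43 with it (adjusted p = 0.00195, exact permutation). Without P runs of 3 or more the difference was −7.09 points, and with heptamer bases counted as inserted it was −22.5 points (adjusted p = 0.00781 and 0.00130, exact permutation). The bait end gave no such pattern: the mean difference was 3.16 points (adjusted p = 0.409, exact permutation). It was −6.19 points on average without DNA-PKcs, where 1 of 6 libraries had the higher share in short insertions, and 12.5 points with DNA-PKcs, where 6 of 6 did, and the contrast between these means was not tested. Compared with longer insertions, short ones had more partner deletions over 20 bp, by 5.37 points in 10 of 12 libraries (adjusted p = 0.0172 by exact sign flips), but not past the threshold without P runs of 3 or more (3.04 points, adjusted p = 0.160). Bait deletions over 20 bp differed by 3.83 points (adjusted p = 0.0865, exact permutation).

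**Figure D4:**
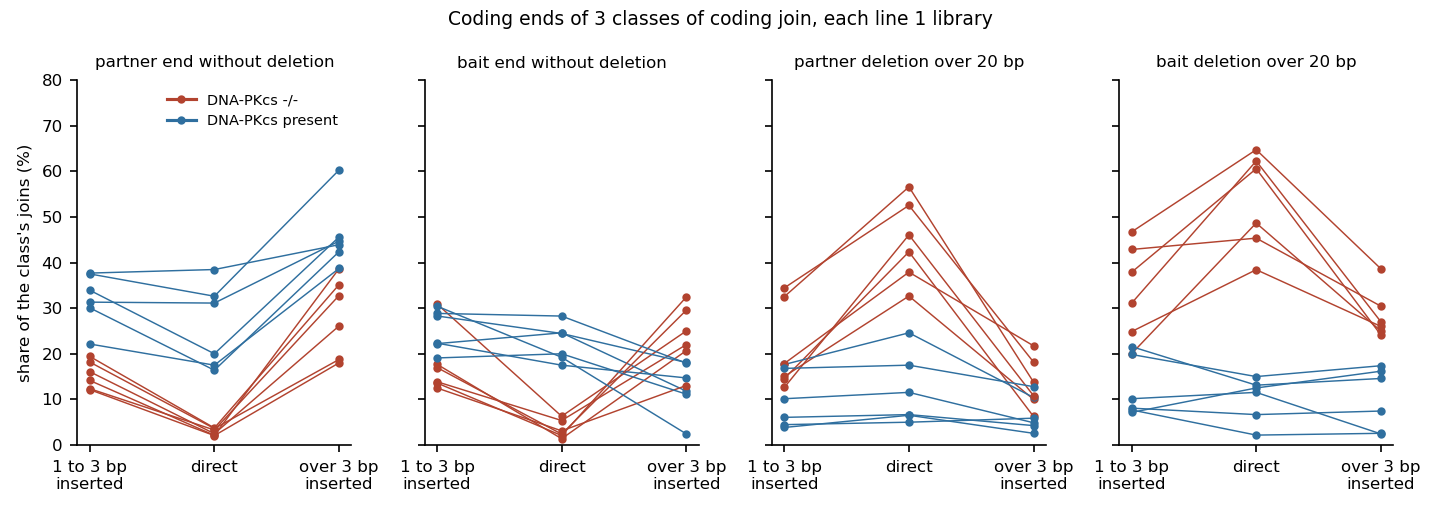
Each line joins the values of 1 library for joins with 1 to 3 inserted bp, direct joins and joins with over 3 inserted bp, as a percentage of that class's joins. The panels give partner ends kept, bait ends kept, partner deletions over 20 bp and bait deletions over 20 bp, with DNA-PKcs −/− libraries red and libraries with DNA-PKcs blue. In the first panel the red lines dip to a mean of 2.88% in direct joins and lie at 15.4% in short insertions and 28.2% in longer ones.

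CtIP genotype moved none of the 8 measures past the threshold in the exact permutation test, nor did any of them, or of the 2 added later, fall under 0.05 before adjustment. Short insertions were 16.5%, 30% and 42.4% of coding joins in the lowest, median and highest CtIP A/A library, against 11.6%, 25.8% and 41.6% in CtIP WT libraries, and the stratum means of 28.1% and 26.2% differed by 1.94 points (95% interval −3.58 to 9.67, adjusted p = 0.651, exact permutation). Single-base insertions differed by 1.10 points (−3.89 to 5.41) and the G or C share by −0.785 points (−4.51 to 2.41). Kept partner ends differed by −0.358 points (−6.72 to 4.85) and kept bait ends by 2.21 points (−4.32 to 9.34).

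The lowest p of this comparison belonged to bait deletions over 20 bp, at 22.4% in CtIP A/A and 28.1% in CtIP WT libraries (difference −5.74 points, 95% interval −14.5 to 0.945, p = 0.111, adjusted p = 0.651, exact permutation). In DNA-PKcs −/− cells the CtIP difference in this measure was −11.7 points and in cells with DNA-PKcs 0.207 points. The difference between these 2 effects was not past the threshold (p = 0.0694 in an exact permutation test, unadjusted). P runs of 3 or more were 13.2% in CtIP A/A and 11.7% in CtIP WT libraries (1.49 points, −7.27 to 6.41). The interval for bait deletions over 20 bp ends at 0.945 points, and the other intervals given for CtIP leave room for effects of a few points in either direction.

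Long deletions were less frequent in G2 than in G1 in every genotype. Partner deletions over 20 bp were 14.5% and 15.03% of short insertions in the 2 CtIP A/A DNA-PKcs −/− G2 libraries and 32.5% in the G1 library. In DNA-PKcs −/− they were 12.6% and 17.9% in G2 and 34.4% in G1. CtIP A/A gave 4.46% and 6.06% in G2 and 17.6% in G1, and WT gave 3.85% and 10.1% in G2 and 16.8% in G1. Both G2 libraries of each genotype lay below its G1 library.

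The mean over genotypes was 10.6% in G2 and 25.3% in G1, a difference of −14.8 points (95% interval −19.6 to −9.94, p = 0.0123, adjusted p = 0.0494, exact permutation over 81 arrangements). Bait deletions over 20 bp were 20.0% and 24.9% in G2 and 37.9% in G1 for CtIP A/A DNA-PKcs −/−, and 31.1% and 42.9% in G2 and 46.7% in G1 for DNA-PKcs −/−. For CtIP A/A they were 7.14% and 8.08% in G2 and 21.6% in G1, and for WT 7.69% and 10.1% in G2 and 19.8% in G1. The means of 19.0% and 31.5% differed by −12.5 points (95% interval −17.9 to −6.78, adjusted p = 0.0494, exact permutation). As at the partner end, both G2 libraries of each genotype lay below its G1 library.

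Each genotype had a single G1 library, and the adjusted p of both measures stood just under the threshold, and it was above 0.05 when any of 11 of the 12 libraries was left out. The second CtIP A/A DNA-PKcs −/− G2 library was the exception. The p of both measures, 0.0123 in the exact permutation test, was the smallest that the 81 arrangements allow. Leaving out a library lowers the number of arrangements and raises that smallest p, so losing the call does not by itself show a smaller difference. Without a G1 library its genotype drops out of the comparison. Leaving out single libraries gave −16.4 to −13.3 points for partner deletions and −14.0 to −11.0 points for bait deletions, with adjusted p up to 0.148. All G1 libraries and the second G2 replicates belonged to the same sequencing run. Within that run the differences were −13.1 points at the partner end and −10.0 points at the bait end, in 4 of 4 genotypes.

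**Figure D5:**
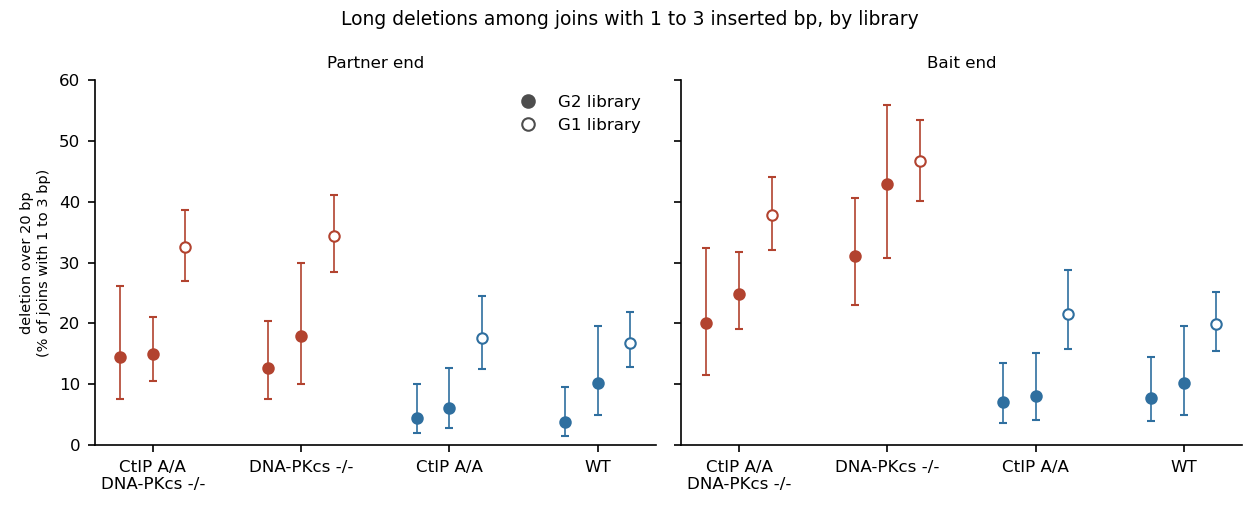
Each point is 1 library, with its 95% Wilson interval, and the y axis gives the percentage of joins with 1 to 3 inserted bp that had lost more than 20 bp at the partner end (left) or the bait end (right). Filled points are G2 libraries and open points G1 libraries, with genotypes lacking DNA-PKcs red and those with it blue. In every genotype both filled points lie below the open one, for example 4.46% and 6.06% against 17.6% at the partner end of CtIP A/A.

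Kept partner ends were 25.8% in G2 and 19.7% in G1 (6.10 points, 95% interval 0.996 to 11.5), which missed the threshold after adjustment (p = 0.0247, adjusted p = 0.0658, exact permutation). The share of short insertions among coding joins was 28.2% in G2 and 26.1% in G1 (2.02 points, −5.32 to 9.20, adjusted p = 0.593, exact permutation). Single-base insertions differed by 1.66 points (−3.94 to 7.46) and the G or C share by 1.37 points (−2.61 to 5.57). P runs of 3 or more were 15.9% in G2 and 8.93% in G1, a difference of 7.02 points in 4 of 4 genotypes that did not pass (p = 0.111, adjusted p = 0.222, exact permutation).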

How the data were processed

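The 12 coding-join libraries were analysed, and the 6 samples with I-PpoI breaks were not analysed here. Per the labels' protocols, sonicated genomic DNA was amplified from a bait primer, digested with BstBI and sequenced on a MiSeq, and alignment was to mm10 extended by the substrate as an extra chromosome. Bowtie2 and mm10 are named per the submitters' processing notes. For the junction caller and tool versions, nothing is given in the sources used here. The deposited tables hold 1 junction per line, with base positions on the genome and on the read and no normalization, per the file headers. All positions given are on the substrate, and its integration site was not analysed here.

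Insertions were read from the sequence between the bait and partner alignments. Shares were computed per library in Python 3.11.15 (numpy 2.4.6, pandas 2.3.3, scipy 1.17.1; figures with matplotlib 3.10.9). Libraries held 289 to 7068 junctions and 166 to 1471 coding joins. Single-library and pooled shares carry 95% Wilson intervals, and 3 counts of the total, 1.15% to 5.45% of a library's short insertions, bound a share of 0. PCR copies carried no molecular identifier, so these cover counting error only. DNA-PKcs, CtIP and phase were compared by permuting labels exactly within 4 strata, two-sided, with Benjamini-Hochberg adjustment over 8 measures and a threshold of 0.05. P runs and purine-only or pyrimidine-only insertions were added after the data had been seen and adjusted over 6 tests. The procedure was tested on simulated data.

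Features were named by rank of mean share per library: the 4 single bases, and the 5 leading 2 bp insertions, 3 bp insertions, partner positions, bait ends and joints, with the P continuation at kept ends. The class, the measures and the lists were chosen with earlier results of these data known. Alternatives were identical joins counted once, heptamer bases counted as inserted, filters on uncut bases, short alignments and nearby mismatches, upper limits of 2 and 4 bp, log odds, the replicate block and leaving out each library. After seeing the data, joins at the C run and joins with P runs of 3 or more were also left out.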

Additional observations from a re-analysis of the deposited data

Results flagged for a closer look

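The share of short insertions among inserted coding joins was lower in G2 than in G1 without DNA-PKcs and higher in G2 than in G1 with it, and the test of that difference in effect drew attention to it. Without DNA-PKcs the share was 77.5% and 77.6% in CtIP A/A DNA-PKcs −/− G2 libraries and 80.7% in G1, and 73.6% and 70.9% in DNA-PKcs −/− G2 libraries and 82.8% in G1. With DNA-PKcs it was 62.2% and 51.3% in CtIP A/A G2 libraries and 51.5% in G1, and 57.1% and 62.7% in WT G2 libraries and 46.2% in G1. The mean effect of G2 against G1 was −6.90 points without DNA-PKcs and 9.49 points with it, a difference of −16.4 points. In an exact permutation test of this difference p was 0.0247, and the adjusted p over the 20 such differences tested was 0.494. The second CtIP A/A G2 library, at 51.3%, lay just below its G1 library, unlike the other 3 G2 libraries with DNA-PKcs.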

How the results depend on the processing

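Of 798 values recomputed under other settings, 717 kept their direction and their side of the threshold, 37 were no longer past it, 11 newly passed it and 33 changed sign. The share of short insertions, the short share of inserted joins, the single-base share, kept partner ends and long deletions at both ends kept their DNA-PKcs calls under every setting tried. For the changes listed here the cause was not tested, beyond what each setting leaves out. Here the short share is that of short insertions among inserted joins, differences are in points and adjusted p come from exact permutation tests.

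Counting heptamer bases as inserted gave −0.173 for the DNA-PKcs difference in G or C share, −9.15 for kept bait ends (now past the threshold), −0.747 and −0.300 for the CtIP differences in single-base and short shares, and −0.559 for the phase difference in single bases. Within libraries it gave 3.28 for kept bait ends against direct joins (no longer past), and −4.75 for kept bait ends and 7.99 for long bait deletions against longer insertions (now past). Insertions of up to 2 bp gave 1.15 and 0.449 for CtIP differences in G or C share and kept partner ends, −10.7 for DNA-PKcs and kept bait ends, and 1.98 and −2.12 for phase differences in purine-only or pyrimidine-only insertions and the short share. Insertions of up to 4 bp gave 0.327 for CtIP and 2.30 for DNA-PKcs in the G or C share, and 4.39 for long partner deletions against longer insertions. Leaving out joins at the C run gave 2.35 for DNA-PKcs in the G or C share and 0.255 for phase in purine-only or pyrimidine-only insertions. Leaving out P runs of 3 or more gave 0.0191 and −1.22 for CtIP in kept partner ends and the short share, 3.06 and −12.9 for DNA-PKcs in the G or C share and kept bait ends, and −0.986 for phase in the short share. Within libraries it gave 3.63 and 2.99 for kept bait and partner ends against direct joins and 3.04 for long partner deletions against longer insertions. The mismatch filter gave 7.60 for phase and kept partner ends (now past) and 5.76 for long partner deletions against longer insertions (no longer past). Leaving out uncut bases and short prey alignments gave 1.23 for CtIP and kept partner ends, and log odds gave −0.0134, on the log odds scale, for phase and the short share.

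Leaving out single libraries gave CtIP differences of −0.0108 to 2.52 in single bases, −1.08 to 4.06 in P runs, −3.12 to 0.398 in kept partner ends, −5.83 to 1.02 in purine-only or pyrimidine-only insertions and −0.0304 to 2.70 in the short share. DNA-PKcs differences ran from 4.17 to 5.86 in the G or C share, which passed the threshold without 6 of the 12 libraries and missed it without the other 6, from 7.73 to 12.9 in P runs and from −8.66 to −4.40 in kept bait ends. Phase differences ran from −0.428 to 3.43 in single bases, −0.214 to 2.78 in the G or C share, 4.44 to 9.59 in P runs, −14.0 to −11.0 in long bait and −16.4 to −13.3 in long partner deletions, 2.99 to 7.29 in kept partner ends, −4.28 to 2.56 in purine-only or pyrimidine-only insertions and −2.85 to 5.25 in the short share. Long bait deletions against longer insertions ran from 2.93 to 5.00.

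With the G2 replicate number as a replicate block, the DNA-PKcs difference in short insertions was −19.4 (adjusted p = 0.0357, exact permutation), and the block changed no DNA-PKcs or CtIP call. It was not run for phase, since the G1 libraries carry no replicate number. Same-numbered replicates correlated between −0.269 and 0.534 over the 8 measures, so the numbers were not taken as pairs, and in G2 they coincide with the sequencing run. Depth limits the smallest libraries, where 55 short insertions leave a share such as 32.7% with a Wilson interval of 21.8% to 45.9%.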

Other observations

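Joins read into the heptamer beyond the bases that match the palindrome were found mainly with DNA-PKcs. At the partner end, 1 join without DNA-PKcs and 30 with it had 3 or more heptamer bases, and position 2810 alone took 1 and 25 of them. At the bait end there were 3 and 15. Partner deletions over 200 bp were found in 13 joins without DNA-PKcs (1.54%) and 21 with it (2.63%). No bait deletion passed that length in either class, but a bait end that has lost the primer site cannot be read. The 2 ends are therefore not comparable at this length. These values were not tested.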
